A study of Mus musculus with 4 samples.

Results

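The DNA replication and S-phase genes are 38 genes that license origins, unwind and copy DNA, supply nucleotides, restore chromatin behind the fork, or drive entry into S phase as cyclin E. They were chosen by name, with earlier results of these data known, and every probe set annotated to 1 of them alone was read. The arrays held 81 such probe sets, covering 37 of the 38 genes, out of 45101 probe sets and 18193 named genes. Each gene is represented by its brightest probe set on average. A gene was analysed when that mean over the 4 arrays reached the 40th percentile of all genes (5.28 on the log2 scale), which left 10916 genes and 35 of the replication genes. Of these 35, 34 were at or above that cutoff on every array, the exception being Orc1, at 5.21 in the in vivo control. Chaf1a had no probe set of its own. Tyms, the thymidylate synthase gene, was under the cutoff on all 4 arrays with each of its 4 probe sets. Ccne2 (cyclin E2) read 5.18 with the deletion in vivo and 4.01 in its control, and 5.67 with the deletion in vitro and 5.12 in its control, values too near the background for its differences to be used.

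The 4 Affymetrix arrays carried RNA of mouse fibroblasts, 1 array per group. The in vivo deleted cells had the genotype ColI Cre x RBP loxp-loxp, and their control had RBP loxp-loxp without Cre. The in vitro deleted cells received Adeno Cre and their control Adeno GFP, both adenoviruses, and the background of all 4 groups is given as C57BL/6. Rbpj, labelled RBP-Jk and also known as CSL, binds DNA and carries the signal of activated Notch receptors to their target genes. The Cre transgene is labelled ColI, a name for type I collagen, which is made by fibroblasts but also by bone-forming cells. The labels used here do not give the tissue of origin, the number of animals or cultures behind an array, or their age. Nor do they say whether the adenovirus-treated cells carried the floxed allele. With 1 array per group, a difference within a pair has no replicate check and no p-value, and the number of arrays limits the precision.

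Rbpj itself was lower with the deletion in vivo by -0.83 to -0.10 on the log2 scale over its 3 probe sets, and in vitro its probe sets differed by -1.34 to 0.10. All 12 fibroblast markers lay above the cutoff on all 4 arrays. The hybridisation spike bioB read 6.56 to 7.32 on the in vivo arrays and 8.02 to 8.78 on the in vitro arrays, so effects of the system and of the hybridisation cannot be told apart. For Gapdh, the 3' minus 5' probe set signal in vitro was 0.02 with the deletion and 1.003 in the control, whereas in vivo it was 0.13 and 0.14.

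DNA replication starts at origins bound by the origin recognition complex, where Cdc6 and Cdt1 load the ring of Mcm2 to Mcm7 during G1 and geminin (Gmnn) blocks reloading after S phase has begun. Cdc45 and the GINS complex then turn the ring into an active helicase, and primase, the polymerases and the clamp PCNA with its loader RFC copy the strands. Most of these genes are transcribed at the G1/S boundary under E2F factors, and they are low in resting fibroblasts.

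All 35 replication genes were higher on the array of in vivo Rbpj deletion than on its control array. The median log2 difference was 0.95, against -0.03 over all genes analysed, and it ran from 0.38 (Rfc3) to 1.49 (Mcm10). Of the 35, 17 were at least 2-fold higher, against 2.81% of all genes, none was 2-fold lower, against 3.81%, and 30 were at least 1.5-fold higher, against 8.02%. A difference above 0 was seen for 46.4% of all genes. None of the 35 was 3-fold higher. With the in vitro deletion the same genes were divided: 23 were higher (42.5% of all genes were) and 12 lower. The median was 0.08 against -0.06 over all genes. None was 2-fold higher or lower, against 0.788% and 1.15% of all genes. The in vivo difference exceeded the in vitro difference for each of the 35 genes and for 52.6% of all genes. Each pair is 1 array against 1, so this difference between the systems was not tested. In bulk RNA, a larger share of cells in S phase and more of these transcripts per cell cannot be told apart. The in vivo deleted array also carried more signal of markers of other cell types. Keratinocyte markers summed to 7021 against 721 in its control and skeletal muscle markers to 4088 against 886 (linear signal). Whether other cells were present, and their part in the replication gene values, was not tested.

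**Figure D1:**
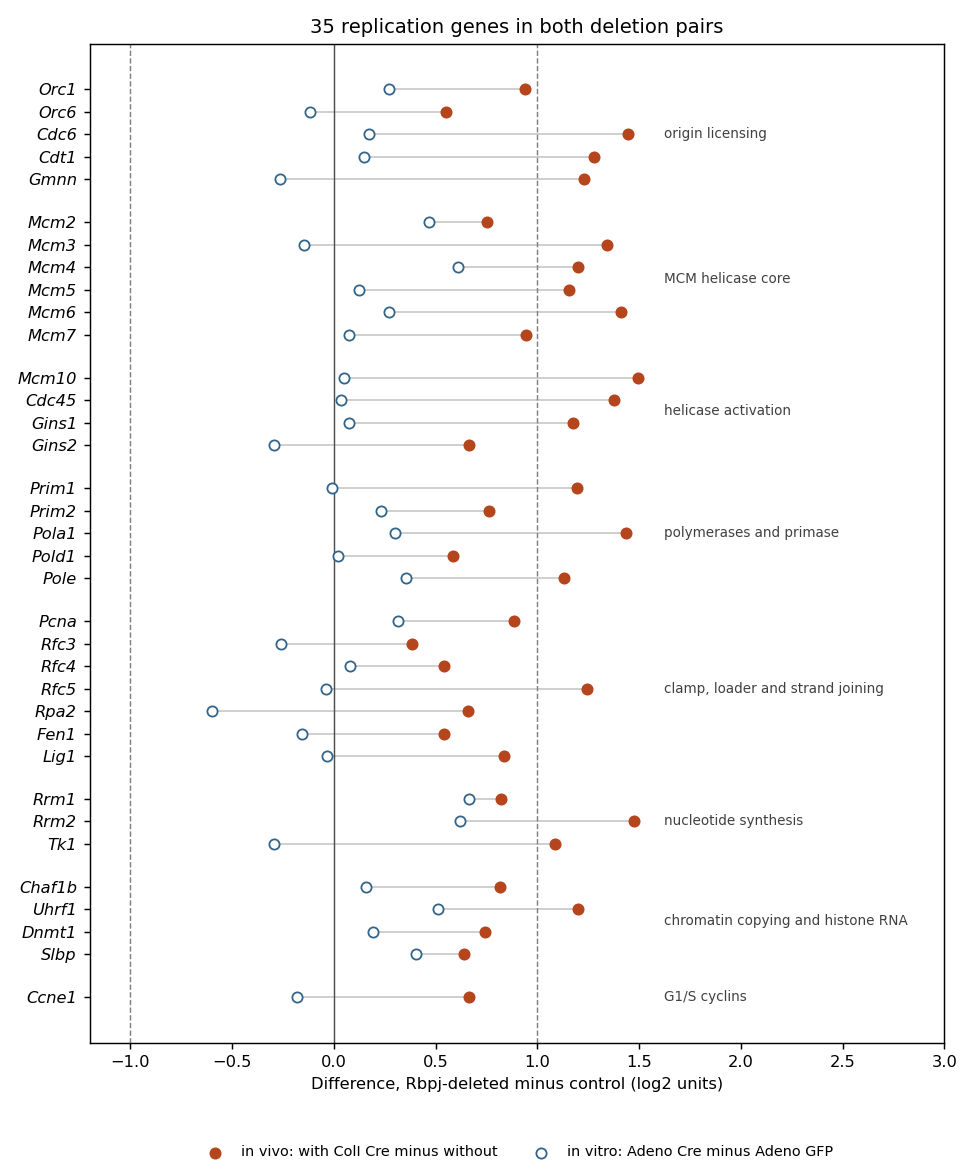
Difference between deleted and control array (log2 units, horizontal axis) for the 35 replication genes, grouped by role, with filled points for the in vivo pair and open points for the in vitro pair. Filled points run from 0.38 to 1.49, all right of their open points, which run from -0.60 to 0.66, and the dashed lines mark 2-fold.

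The promoters of the genes with the largest in vivo differences are shown because E2F, CSL and NF-Y words in them can be read directly. Windows from 250 bases before to 50 after the transcription start came from RefSeq (GRCm38.p6), in the direction of transcription, and 31 of the 38 genes had at least 1 window, 38 windows in all. The E2F words searched were TTTCCCGC, TTTCGCGC, TTTGCCGC and TTTGGCGC, on both strands. Words may overlap each other, as the first pair in Mcm6 does, and bases of such a word are in capitals. Cdc6 (chr11:98907901-98908200, plus strand), Pola1 (chrX:93632106-93632405, minus), Mcm6 (chr1:128359656-128359955, minus) and Mcm3 (chr1:20820263-20820562, minus) are the 4 genes with the largest in vivo difference whose window held an E2F word. Mcm10 (chr2:5012742-5013041, minus), the gene with the largest difference of all, had none within its window. That window ends in tttggcg, all but the last letter of TTTGGCGC, so a word crossing its edge would not be counted.
Cdc6: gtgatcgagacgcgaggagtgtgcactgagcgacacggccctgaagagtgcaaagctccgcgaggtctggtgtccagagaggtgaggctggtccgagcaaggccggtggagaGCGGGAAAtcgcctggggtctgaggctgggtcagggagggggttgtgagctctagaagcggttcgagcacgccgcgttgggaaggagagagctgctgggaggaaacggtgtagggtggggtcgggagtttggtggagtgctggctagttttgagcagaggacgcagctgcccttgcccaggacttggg
Pola1: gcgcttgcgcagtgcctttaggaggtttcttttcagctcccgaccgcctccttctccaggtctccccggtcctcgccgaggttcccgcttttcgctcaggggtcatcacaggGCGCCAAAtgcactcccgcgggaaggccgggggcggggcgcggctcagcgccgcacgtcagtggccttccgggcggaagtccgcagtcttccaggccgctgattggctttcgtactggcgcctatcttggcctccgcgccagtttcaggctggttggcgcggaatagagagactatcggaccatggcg
Mcm6: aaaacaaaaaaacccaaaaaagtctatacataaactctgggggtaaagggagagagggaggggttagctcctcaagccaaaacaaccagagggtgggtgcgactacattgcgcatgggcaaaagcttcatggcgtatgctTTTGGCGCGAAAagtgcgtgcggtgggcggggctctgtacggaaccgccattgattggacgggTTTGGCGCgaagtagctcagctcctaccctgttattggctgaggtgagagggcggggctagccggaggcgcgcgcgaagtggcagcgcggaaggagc
Mcm3: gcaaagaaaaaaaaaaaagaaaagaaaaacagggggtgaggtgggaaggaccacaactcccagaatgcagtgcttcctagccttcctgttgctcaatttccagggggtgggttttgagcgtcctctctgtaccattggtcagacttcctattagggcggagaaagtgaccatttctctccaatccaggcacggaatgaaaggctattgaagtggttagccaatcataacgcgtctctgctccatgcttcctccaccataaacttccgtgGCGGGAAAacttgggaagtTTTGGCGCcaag
Mcm10: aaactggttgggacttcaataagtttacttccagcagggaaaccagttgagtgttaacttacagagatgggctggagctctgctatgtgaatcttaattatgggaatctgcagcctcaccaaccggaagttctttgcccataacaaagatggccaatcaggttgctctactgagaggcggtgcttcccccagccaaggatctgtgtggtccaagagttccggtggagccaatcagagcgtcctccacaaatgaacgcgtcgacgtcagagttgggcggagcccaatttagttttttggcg
Counted from the transcription start, the word began at -138 in both Cdc6 and Pola1, at -110, -106 and -47 in Mcm6, and at 20 and 39 in Mcm3. E2F words were found in 13 of the 38 windows (34.2%), against 2.26% of all 32851 windows of the same length. The windows of the replication genes were also richer in G and C, with a median of 58.0% against 52.7%. The 13 genes with a word were Cdc6, Cdt1, Dnmt1, Lig1, Mcm3, Mcm5, Mcm6, Mcm7, Orc1, Pola1, Pold1, Rfc3 and Uhrf1. Their median in vivo difference was 1.16 (0.38 to 1.44), and that of the 16 analysed genes with windows but no word was 0.82 (0.54 to 1.49), so the ranges overlapped. The NF-Y word CCAAT was in 23 windows (60.5%), against 37.4% of all. The CSL words CGTGGGAA and TGTGGGAA were in 1 window (2.63%), that of Fen1, named after this was seen, and in 2.57% of all windows. A match describes letters and is not evidence of binding.

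Licensing genes were higher with the in vivo deletion, 3 of 5 by at least 2-fold (2.81% of all genes were). Cdc6, an ATPase that helps load the MCM ring, read 7.36 with the deletion and 5.92 in the control in vivo, and 5.93 and 5.76 in vitro. Cdt1, its partner in loading, read 9.94 and 8.66 in vivo and 8.75 and 8.61 in vitro (deleted, then control). Both were thus highest on the in vivo deleted array and close to level on the other arrays. Gmnn, the inhibitor of Cdt1, went the same way, at 8.73 with the deletion and 7.51 in the control in vivo. In vitro Gmnn read 6.92 with the deletion and 7.19 in the control. Loader and inhibitor were therefore both more than 2-fold higher in vivo (2.72-fold for Cdc6, 2.43-fold for Cdt1, 2.34-fold for Gmnn). The origin recognition subunits differed less, by 0.94 for Orc1 and 0.55 for Orc6 in vivo, and by 0.27 and -0.12 in vitro. A second Orc1 probe set differed by 0.12 in vivo.

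The helicase core differed as a group in vivo: its 6 subunits were higher by 0.75 (Mcm2) to 1.41 (Mcm6). At least 2-fold higher by the brightest probe set were 4 of 6, against 2.81% of all genes. Other probe sets put Mcm2 (1.06) and Mcm7 (up to 1.11) past 2-fold in vivo, and 1 of Mcm3 (0.91) under it. Mcm6 read 10.09 with the deletion and 8.68 in the control in vivo, against 9.32 and 9.05 in vitro. Mcm3 read 9.49 and 8.15 in vivo and 8.36 and 8.50 in vitro, so it was lower with the deletion in culture by this probe set. Mcm4 read 9.55 and 8.36 in vivo and 8.88 and 8.27 in vitro, and was higher in both pairs. For each of these 3 subunits the in vivo deleted array was the highest of the 4. Mcm5 was higher by 1.16 and Mcm7 by 0.95 in vivo, against 0.12 and 0.07 in vitro.

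Among the factors that activate the helicase, 3 of 4 were at least 2-fold higher in vivo, against 2.81% of all genes. Mcm10, which binds the ring as the fork starts, read 7.76 with the deletion and 6.26 in the control in vivo, a 2.82-fold difference, and 6.80 and 6.75 in vitro. Cdc45, a subunit of the active helicase, read 7.89 and 6.52 in vivo and 6.49 and 6.45 in vitro. In culture their differences were 0.05 and 0.03. The GINS subunits were unlike each other: Gins1 differed by 1.17 in vivo and 0.07 in vitro, and Gins2 by 0.66 and -0.29. Gins2 read 8.50 with the deletion and 7.84 in the control in vivo, and 7.51 and 7.80 in vitro.

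The enzymes that make DNA were next. Pola1, the catalytic subunit of polymerase alpha, which extends the primers, read 7.81 with the deletion and 6.38 in the control in vivo, and 7.10 and 6.80 in vitro. Pole, of the leading-strand polymerase, differed by 1.13 and 0.35, and Pold1, of the lagging-strand polymerase, by 0.58 and 0.02 (in vivo, then in vitro). The catalytic primase subunit Prim1 differed by 1.19 and -0.01 and the large subunit Prim2 by 0.76 and 0.23. In vivo 3 of these 5 genes were thus past 2-fold, against 2.81% of all genes.

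By their brightest probe sets, clamp, loader and strand-joining genes had smaller in vivo differences, with a median of 0.66. At least 2-fold higher was 1 of 7, against 2.81% of all genes. The other probe sets of Rpa2 and Fen1 were past 2-fold in vivo (1.19 and 1.46), and those of Rfc3 and Rfc4 were not (0.66 and 0.69). In vitro 2 of 7 were higher with the deletion (42.5% of all genes were) and 5 lower. By the brightest probe set, the gene past 2-fold was Rfc5, a clamp loader subunit. Rfc5 read 8.89 with the deletion and 7.64 in the control in vivo, and 7.47 and 7.51 in vitro. Rfc3 and Rfc4, subunits of the same loader, differed by 0.38 and 0.54 in vivo, and by -0.26 and 0.08 in vitro. Rpa2, a subunit of the single-strand binding protein RPA, had the lowest in vitro difference of all 35 genes. It read 7.46 with the deletion and 6.80 in the control in vivo, and 6.69 and 7.29 in vitro. By this probe set the directions in the pairs were opposite, while its other probe set differed by -0.04 in vitro. Pcna itself differed by 0.88 in vivo and 0.31 in vitro. Lig1, the ligase of Okazaki fragments, differed by 0.84 and -0.04. The flap nuclease Fen1 differed by 0.54 in vivo with the probe set used and by 1.46 with its other probe set, and by -0.16 and -0.05 in vitro.

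Nucleotide synthesis held the highest in vitro differences. Rrm2, the S-phase subunit of ribonucleotide reductase, read 11.01 with the deletion and 9.54 in the control in vivo, and 10.20 and 9.58 in vitro. Rrm1, the large subunit, read 10.61 and 9.79 in vivo and 10.08 and 9.42 in vitro. Both subunits were higher with the deletion in both pairs. Tk1, the S-phase thymidine kinase, was not: it read 9.92 and 8.83 in vivo (2.12-fold higher) and 7.51 and 7.80 in vitro. Only Rrm1, Rrm2 and Mcm4 among the 35 genes were at least 1.5-fold higher in vitro, against 5.10% of all genes, and only Rpa2 was at least 1.5-fold lower, against 9.66%. At 2-fold the shares of all genes in vitro were 0.788% higher and 1.15% lower (86 and 125 genes), and centring on the median difference made them 105 and 83 genes.

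All 4 measured chromatin genes were higher in vivo (46.4% of all genes were). In vitro 4 of 4 were higher by their brightest probe set (42.5% of all genes were). Uhrf1, which brings the maintenance methyltransferase Dnmt1 to newly copied DNA, read 8.85 with the deletion and 7.65 in the control in vivo, and 8.09 and 7.58 in vitro. Dnmt1 differed by 0.74 in vivo and 0.19 in vitro, but its other probe sets were lower in vitro, at -0.10 and -0.08. Chaf1b, a subunit of the histone chaperone CAF-1, differed by 0.82 in vivo and 0.16 in vitro. Slbp, which binds the stem-loop of histone mRNA, differed by 0.64 and 0.41. It was the 1 gene of the 35 whose highest array was the in vitro deleted one (9.75). Ccne1 (cyclin E1), which activates Cdk2 at the G1/S boundary, differed by 0.66 in vivo and -0.18 in vitro. Its other probe set differed by 1.02 in vivo, past 2-fold, and by -0.03 in vitro.

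**Figure D2:**
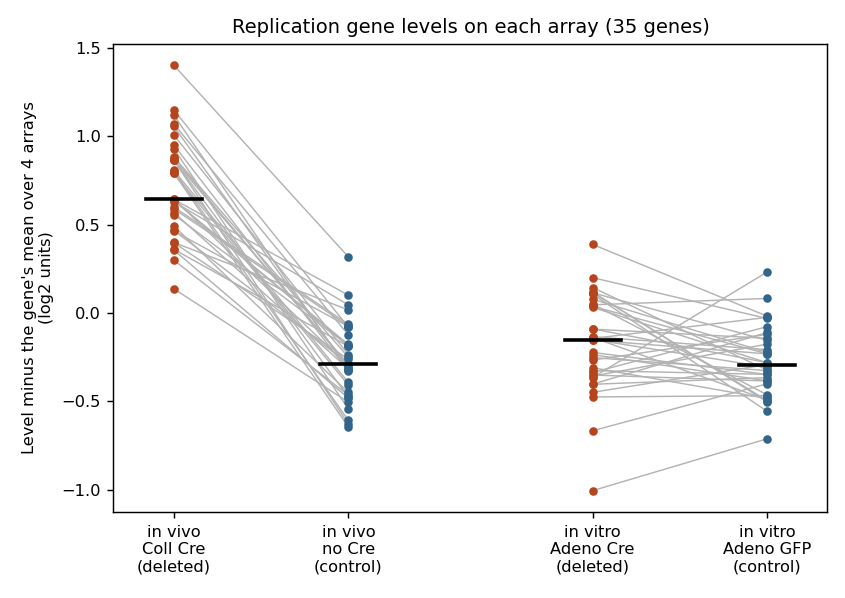
Level of each of the 35 replication genes on the 4 arrays, minus that gene's mean over the arrays (log2 units, vertical axis), with grey lines joining the arrays of a pair and black bars at the median. The in vivo deleted array stands above the others and was the highest for 34 of the 35 genes.

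The in vivo control minus the in vitro control had a median of 0.06 over the 35 genes, against 0.01 over all genes. Single genes went both ways, between -0.56 (Lig1) and 1.03 (Tk1). The in vivo deleted minus the in vitro deleted array had a median of 0.79, against 0.08. These medians compare arrays of different systems, which also differed in the bioB spike. Across the 35 genes the in vivo and in vitro differences had a Pearson r of 0.29 and a Spearman rho of 0.27, as a description over genes that share the same arrays and are not independent. Over all genes analysed, r was 0.10.

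**Figure D3:**
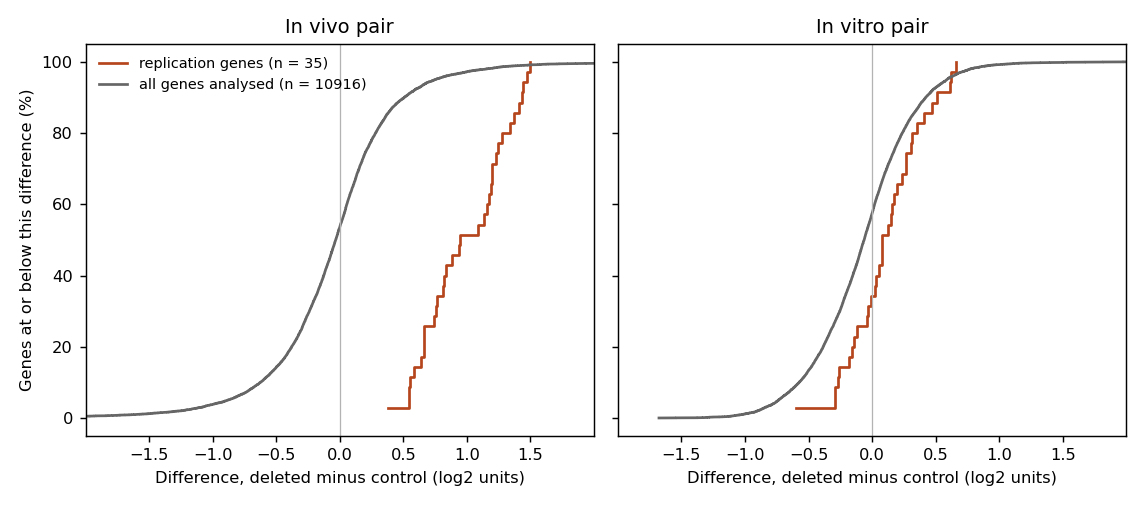
Cumulative share of genes (percent, vertical axis) at or below each difference between deleted and control array (log2 units), for the 35 replication genes and for all 10916 genes analysed, with the horizontal axis drawn from -2 to 2, so that some of all genes lie outside it. In vivo the curve of the replication genes starts at 0.38 and ends at 1.49, and in vitro it lies nearer the curve of all genes.

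Probe sets of a gene were about as far apart in vivo as in vitro at the median, and the widest gaps were in vitro. Over the 21 genes with several probe sets above the cutoff, the median range of the difference was 0.26 in vivo and 0.29 in vitro. The widest range was 0.92 in vivo (Fen1) and 1.78 in vitro (Rrm1). Above the cutoff the 35 genes had 62 probe sets, of which 62 were higher in vivo, 32 of them at least 2-fold, and 37 were higher in vitro. With every such probe set of a gene required to be at least 2-fold higher, 15 genes remained in vivo. The SD of the difference over probe sets of a gene was 0.25 in vivo and 0.39 in vitro, and over all genes with several probe sets it was 0.28 and 0.48. Of those genes, 4.31% had probe sets over 1 apart in vivo, and 17.8% in vitro.

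In vitro, 4 probe sets were at least 2-fold higher, all of genes whose brighter probe set was not. Rrm1 showed the widest gap: its second probe set read 9.89 with the deletion and 7.45 in the control in vitro, a difference of 2.44 against 0.66 for the brighter one. In vivo that second probe set read 9.85 and 8.88. The low array for it was thus the in vitro control. For Rrm2, the dimmest probe set differed by 1.46 in vitro and the other probe sets by 0.62. The second probe sets of Uhrf1 (1.33) and Mcm2 (1.04) also exceeded the brighter ones (0.51 and 0.47). The 4 probe sets of Mcm3 gave differences between 0.91 and 1.54 in vivo, and between -0.15 and 0.96 in vitro. These gaps came from the pair in which the 3' excess of Gapdh differed between the arrays. That of Actb was 0.40 with the deletion and 1.11 in the control in vitro, and 0.15 and 0.41 in vivo. The part of RNA integrity in the in vitro values was not tested.

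**Figure D4:**
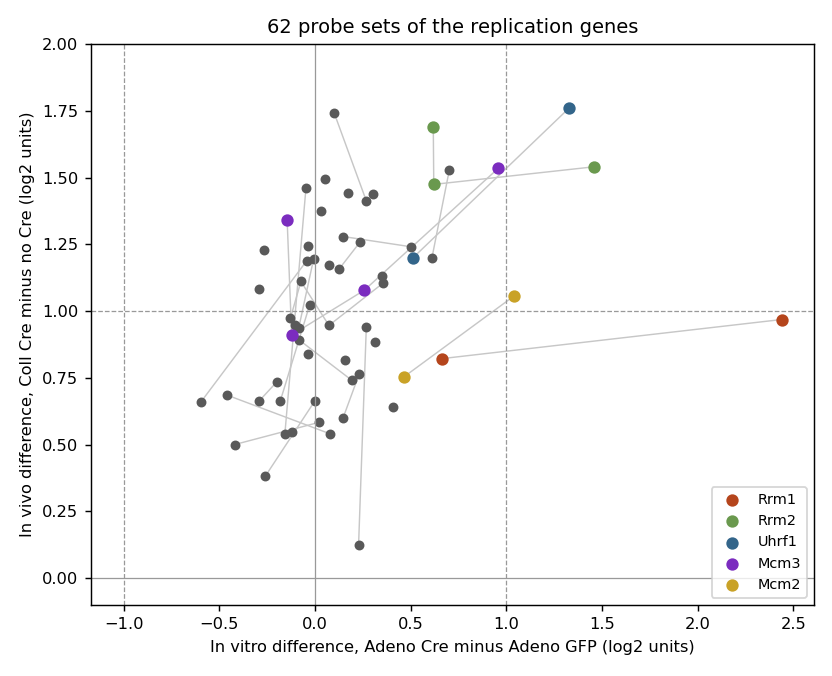
In vitro difference (horizontal axis) against in vivo difference (vertical axis) for the 62 probe sets above the cutoff, both in log2 units, with lines joining probe sets of a gene, colours for 5 named genes and dashed lines at 2-fold. All points lie above 0 on the vertical axis, and Rrm1 spreads from 0.66 to 2.44 on the horizontal one.

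An effect shared by the systems was fitted over all genes with limma, deleted against control with system as a covariate, 2 arrays against 2. At an adjusted p of 0.05 (Benjamini-Hochberg) limma called 0 of 10916 genes and so 0 of the 35 (background 0%). Without adjustment 759 genes (6.95%) had p under 0.05, 217 of them (1.99%) higher with the deletion, and so did 7 of the 35, all higher. These were Mcm4, Rrm2, Rrm1, Uhrf1, Mcm2, Pole and Pola1, each with an adjusted p of 0.679 from limma. Fitted differences were 1.05 ± 0.28 for Rrm2, 0.91 ± 0.24 for Mcm4 and 0.74 ± 0.20 for Rrm1 (log2, SE, higher with the deletion in 2 of 2 pairs). Mcm10, the highest in vivo, was fitted at 0.77 ± 0.39 (adjusted p = 0.690, limma). The SEs and p-values rest on a spread that limma draws partly from each gene's 2 pairs, which come from different systems. That part has 1 residual degree of freedom per gene, and the part pooled over all genes weighs as 3.69. Adjusted p-values of the 35 genes ran up to 0.989 (Rpa2).

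Other replication genes, a list of 61 that shares no gene with the 38, differed in the same direction in vivo. Like the 38, these were chosen with earlier results of these data known, so they are not an independent check. Of the 54 analysed, 50 were higher (46.4% of all genes were) and 10 at least 2-fold (2.81%), with a median of 0.56. Clspn (claspin, a mediator of the checkpoint kinase Chk1) differed by 1.49, the helicase-like Hells by 1.36, the origin subunit Orc2 by 1.21 and Topbp1, a scaffold of origin firing, by 1.21. The 4 that were lower were Pold4 (-0.55), Rrm2b (-0.34), Orc4 (-0.20) and Orc5 (-0.08), named after their values were seen. In vitro 31 of the 54 were higher (42.5% of all genes were) and none at least 2-fold (0.788% of all genes were). The median was 0.10. Its extremes there were Dctpp1, a nucleotide pyrophosphatase, at -0.99 and Topbp1 at 0.79.

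Of the cell cycle lists, mitosis genes came closest to the replication genes in vivo. All 25 were higher (46.4% of all genes were) and 8 at least 2-fold (2.81%), with a median of 0.88. The largest differences were those of the kinases Ttk (1.59), Aurka (1.29), Aurkb (1.28) and Plk1 (1.16). In vitro 9 of the 25 were higher (42.5% of all genes were) and 16 lower. The median was -0.11, with Cenpa, a centromeric histone, at -0.74. E2F and pocket protein genes had 11 of 14 higher in each pair, against 46.4% of all genes in vivo and 42.5% in vitro. Their medians were 0.44 in vivo and 0.28 in vitro. The proliferation-linked Mybl2 read 7.43 with the deletion and 5.74 in the control in vivo, and E2f7 and E2f8, repressors of the family, differed by 1.20 and 1.02. Rbl1 (p107), a pocket protein, differed by 1.16 in vivo and 1.09 in vitro. Of 11 D cyclin and CDK inhibitor genes, 3 were higher in vivo (46.4% of all genes were) and 8 lower. The inhibitor Cdkn1c (p57) read 7.05 with the deletion and 9.51 in the control, and Cdkn2b (p15) 8.17 and 9.20, while cyclin D1 (Ccnd1) read 10.36 and 8.96.

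Most keratinocyte and skeletal muscle markers past the filter were higher with the deletion in vivo. Of 16 keratinocyte markers 15 had a probe set and 11 passed the filter. At least 2-fold higher in vivo were 9 of the 11 (2.81% of all genes were). Krt10 (-0.33) and Epcam (0.07) were the exceptions. Only 6 of the 15 were at or above the cutoff on every array, so several passed by their mean while under it on some arrays. Their summed linear signal over all 15 was 7021 with the deletion and 721 in the control in vivo, and 1006 and 1480 in vitro. Krt14 and Krt5, keratins that define basal epidermis, read 10.94 and 10.28 with the deletion, and 5.93 and 6.04 in the control. Of 12 skeletal muscle markers 9 passed the filter, and 8 were at least 2-fold higher in vivo (2.81% of all genes were). On every array 3 of the 12 were at or above the cutoff. The 12 summed to 4088 with the deletion and 886 in the control in vivo, and to 457 and 535 in vitro. Of the 12 fibroblast markers 8 were lower in vivo, while 46.4% of all genes were higher. At least 1.5-fold lower were 3 (11.2% of all genes were), namely Lum (-1.06), Twist1 (-0.78) and Pdgfra (-0.59). The sum over the 12, which the brightest genes dominate, was 65820 with the deletion and 68498 in the control in vivo. Of the 8 macrophage and 7 endothelial markers, 4 and 2 passed the filter. None of these was at least 2-fold higher in vivo (2.81% of all genes were). The macrophage marker Lyz2 was lower by more than 2-fold (-1.06) and the endothelial marker Tek differed by -0.71. The 1 T cell (Cd3e) and the 1 melanocyte and Schwann cell marker (Sox10) that passed differed by 0.01 and -0.002 in vivo.

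**Figure D5:**
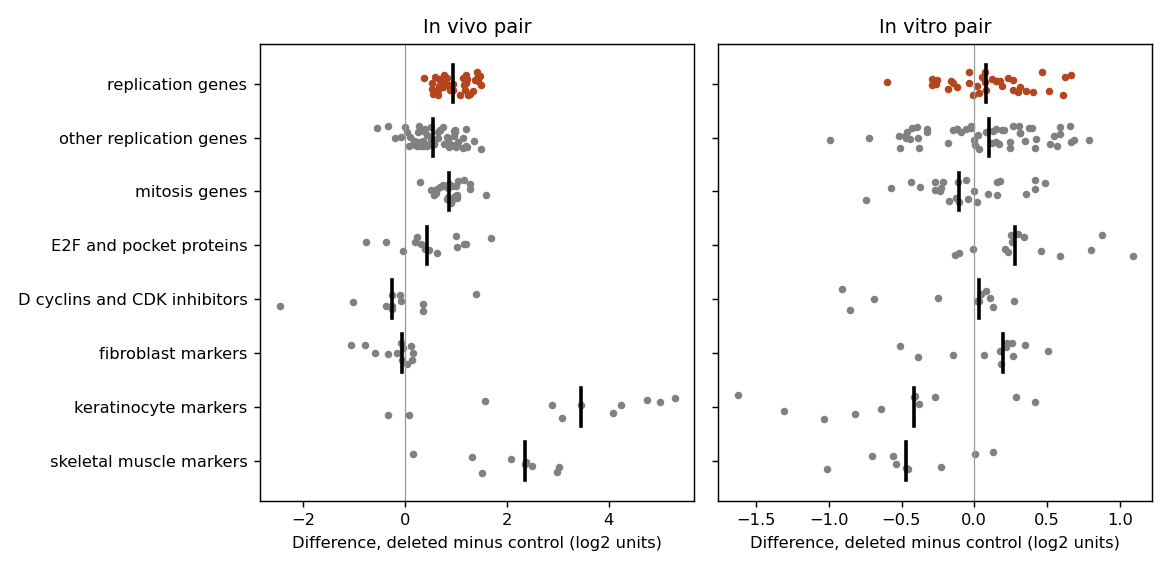
Differences between deleted and control array (log2 units, horizontal axes, which differ in range between the panels) for the genes of 8 lists in each pair, with black bars at the median. In vivo the replication genes have a median of 0.95 and the mitosis genes 0.88, and keratinocyte markers (3.46) and skeletal muscle markers (2.35) are drawn only for those that passed the filter, some of them under the cutoff on at least 1 array.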

How the data were processed

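The deposited table holds 1 log2 expression value per probe set and array, read as log2 from its range. How the authors summarised and normalized these log2 values is not given in the sources used here. Oligo(dT) primed the poly(A) RNA, per the labels' protocols, which was copied to cDNA and labelled as cRNA, so signal depends on RNA integrity. The deposited columns had upper quartiles of 7.18, 7.17, 6.91 and 6.94 (the in vitro deleted array and its control, then the in vivo deleted array and its control), and were quantile normalized over the 4 arrays. Of 45101 probe sets, the platform annotation gave 34958 a single gene symbol and 932 several, and 9211 were not listed. A probe set annotated to both Tyms and Tyms-ps was not used. Symbols were updated through RefSeq (GRCm38.p6), where 34754 matched. The shared effect was fitted with limma 3.58.1 in R 4.3.3. Quantile normalization, the limma fit and the 2-fold rule were tested on simulated gene-level data with equal effects in both systems. The other steps were not tested in this way.

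The 38 genes and all lists were chosen with earlier results of these data known. The 38 genes are all named, with values on all arrays for the 12 with the largest in vivo difference, the 4 highest and 4 lowest in vitro, and those with probe sets over 1 apart. Up to 4 genes per list and comparison are named by the size of their difference. Alternatives covered normalization, centring, an added constant, the level filter, the choice of probe set, gene span, the threshold and the fitted model. A fold understates the difference of dim genes.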

Additional observations from a re-analysis of the deposited data

Results flagged for a closer look

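Rpa2 lay on opposite sides of 0 in the pairs, each time by more than the SD over probe sets of a gene. Its difference was 0.66 in vivo and -0.60 in vitro. With its second probe set the values were 1.19 in vivo and -0.04 in vitro. With 1 array per group the difference between the systems was not tested.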

How the results depend on the processing

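With 1 array per group, no array could be left out of a pair, and leaving 1 out of the limma fit leaves no residual degree of freedom. The in vivo median stayed between 0.88 and 1.08 and the in vitro median between 0.05 and 0.17 over all settings, including the probe set nearest to 0, added after seeing the data. Every measured gene was higher in vivo under each setting, and 9 of 35 changed sign in vitro under at least 1 (Cdc45, Dnmt1, Lig1, Mcm3, Pola1, Pold1, Prim1, Rfc4 and Rfc5). A 1.5-fold threshold gave 30 genes higher in vivo and 3 higher and 1 lower in vitro, and a 3-fold threshold gave 0 in vivo. In vitro, 1 gene was at least 2-fold higher with the median of all probe sets, and 1 without probe sets ending in _x_at or _s_at. The limma fit called 0 genes under all 9 alternatives, with 131 to 1230 genes at an unadjusted p under 0.05. Loess made the in vitro 2-fold counts over all genes 101 higher and 77 lower, and the median of all probe sets 248 and 103, against 86 and 125. Signals near the background limit Ccne2 and the Tyms probe sets that were used.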

Other observations

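The in vivo and in vitro control arrays differed for some genes of the cell cycle, with the bioB spike also unlike between the systems. Tk1 read 8.83 in the in vivo control and 7.80 in the in vitro control. Mitosis genes had a median difference between those controls of 0.57, against 0.06 for the replication genes. Lig1 read 8.30 in the in vivo control and 8.87 in the in vitro control.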
